A study of Mus musculus with 6 samples.

Results

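The 35 genes described here make up the core of the PI3K-AKT-mTOR pathway: insulin receptor family genes and their adaptors, the class I PI3K subunits, phosphoinositide and AKT phosphatases, the kinases PDK1 and AKT, the AKT substrates GSK3 and FOXO, the TSC-RHEB switch, the mTOR complexes and the substrates of mTOR complex 1. They were chosen by name, with no cut on their values, from the 52550 genes listed in each sample, and all 35 were found. They were compared in colon epithelium between 3 samples of fl/fl mice (Zfp90 fl/fl) and 3 samples of ΔIEC mice (Zfp90 ΔIEC). The labels number the samples as replicates without naming animals, and each sample is called a mouse below. All mice were male C57BL/6 animals of 6 to 8 weeks at the start by the labels (the methods give the upper of these ages), and all received azoxymethane (10 mg/kg), a colon carcinogen, followed after 5 days by dextran sulfate sodium, which injures the colon. Dextran sulfate sodium was given in 3 cycles of 7 days, each followed by 14 days of water, at 2% by the labels (the methods of the study give a higher dose), and the mice were killed on day 80.

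In Zfp90 ΔIEC mice a Cre recombinase driven by the Villin promoter removes an exon and the 3′ end of Zfp90, a zinc finger protein gene, from intestinal epithelial cells and leaves it intact in other cell types, and the Zfp90 fl/fl littermates carry the floxed gene without Cre. Both genotypes received the carcinogen and the injury, so that no untreated mice enter any comparison. The genotypes were housed apart after weaning, and cage and genotype cannot be told apart. The study asked whether PI3K-AKT signaling differs between these mice. The comparison below addresses the mRNA level of the pathway's own components, since phosphorylation of the proteins is not measured by RNA-seq.

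In this pathway, insulin or a growth factor activates a receptor kinase, adaptors of the IRS family recruit PI3K to it, and PI3K phosphorylates a membrane lipid that draws PDK1 and AKT to the membrane. AKT then phosphorylates GSK3, FOXO transcription factors and the TSC complex, and through RHEB this releases mTOR complex 1, which drives translation by way of S6 kinase and 4E-BP1. Most of this control is exerted by phosphorylation. A few transcripts answer to it, as FOXO factors raise Irs2 and Insr when AKT is inactive. Ddit4, an inhibitor of mTOR complex 1, is induced by hypoxia, glucocorticoids and the stress factor ATF4. In the colon the pathway serves crypt growth and repair, and its activation is frequent in colorectal cancer.

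Values are FPKM, that is fragments scaled to transcript length and to the mapped fragments of the sample, so that levels can be set side by side between genes. Between 11398 and 11520 genes per sample reached 1 FPKM, and the spacing of low values gave an estimated 25.9 to 28.9 M fragments per sample. Zfp90 lay between 0.490 and 0.630 FPKM in the fl/fl mice and between 0.0846 and 0.195 FPKM in the ΔIEC mice. Of 10 epithelial markers, 9 were tested and 0 passed the adjusted threshold, while the stem cell marker Lgr5 stayed below 1 FPKM in all 6 samples. Epcam lay between 553 and 609 FPKM with overlap. Of the 9 tested, 5 were higher and 4 lower in the ΔIEC mice. Higher without overlap were 3, against 8.73% of all genes tested: Car1, a carbonic anhydrase of colonocytes, the keratin gene Krt18 and the goblet cell mucin gene Muc2. Their ΔIEC and fl/fl means were 7871 against 4706 FPKM, 348 against 302 FPKM and 689 against 439 FPKM (adjusted p = 0.162, 0.240 and 0.368). Muc2 was measured at 1010, 593.1 and 464.5 FPKM in the ΔIEC mice, replicate 1 being the highest by far. The summed level of 16 leukocyte markers was 10.5 to 11.5 FPKM in the fl/fl mice and 4.01 to 5.07 FPKM in the ΔIEC mice. Of these, 16 of 16 were lower in mean, and S100a8 and S100a9 were listed at 0 in all 3 ΔIEC mice. Lower without overlap were 12 of 16, against 8.88% of all genes in the fit without a filter on low values. In that fit the marker Itgam passed the adjusted threshold (adjusted p = 0.0199, limma). In bulk samples, fewer cells of a type and less RNA per cell cannot be told apart.

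No gene of the core pathway differed between the genotypes past the adjusted threshold, which leaves differences within the intervals given below possible. Of the 35 genes, 30 reached 1 FPKM in at least 3 samples and were tested, and 0 of the 30 passed an adjusted p of 0.05 (limma with Benjamini-Hochberg adjustment over 11564 genes), against 0.199% of all genes tested. With an unadjusted p under 0.05 there were also 0 of the 30, against 14.6% of all genes tested, and the lowest unadjusted p was 0.0594 for Pik3r1. The adjusted p of the 30 genes ranged from 0.367 to 0.986.

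Most of the differences were small. The log2 fold change, taken as ΔIEC minus fl/fl on the log2(FPKM + 1) scale, ranged from -0.16 for Pdpk1 to 0.54 for Phlpp2, and the next highest was 0.05 for Insr. For 29 of 30 genes the 95% interval of the log2 fold change lay within a 1.5-fold change either way, against 89.0% of all genes tested, and the exception was Phlpp2. With Phlpp2 and Akt1s1 set aside, the bounds of these intervals ran from -0.36 to 0.32. The log2(FPKM + 1) scale narrows the differences of low genes, and with a pseudocount of 0.1 FPKM, 28 of 30 intervals lay within 1.5-fold, the other exception being Akt1s1, against 79.8% of all genes tested. Within 2-fold lay 29 of 30, against 93.8%.

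Most of the differences, though small, pointed one way. The log2 fold change was below 0 for 25 of the 30 genes (83.3%), against 57.2% of all genes tested, and its median was -0.04, against -0.02 over all genes tested. The SD between replicates of the samples' median deviation over the pathway genes was 0.0232, and the shared direction was not tested. With median ratio scaling of the samples it was below 0 for 22 of 30 (73.3%), against 51.2% of all genes tested. All 3 ΔIEC values lay below all 3 fl/fl values for 5 of the 30 genes (16.7%), against 12.6% of all genes tested, and all lay above for 0 of the 30, against 8.73%. Taking both directions together, the genotypes did not overlap for 21.3% of all genes tested. The 5 genes were Pik3ca, Pik3r1, Pdpk1, Akt1 and Gsk3b. Of these, only Pik3r1 stayed without overlap under median ratio scaling, against 9.7% of all genes tested. Only Pdpk1 did so under quantile normalization, against 10.5%. As deposited, the gap between the lowest fl/fl value and the highest ΔIEC value ranged from 0.0252 FPKM for Akt1 to 0.104 FPKM for Pik3r1.

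**Figure D1:**
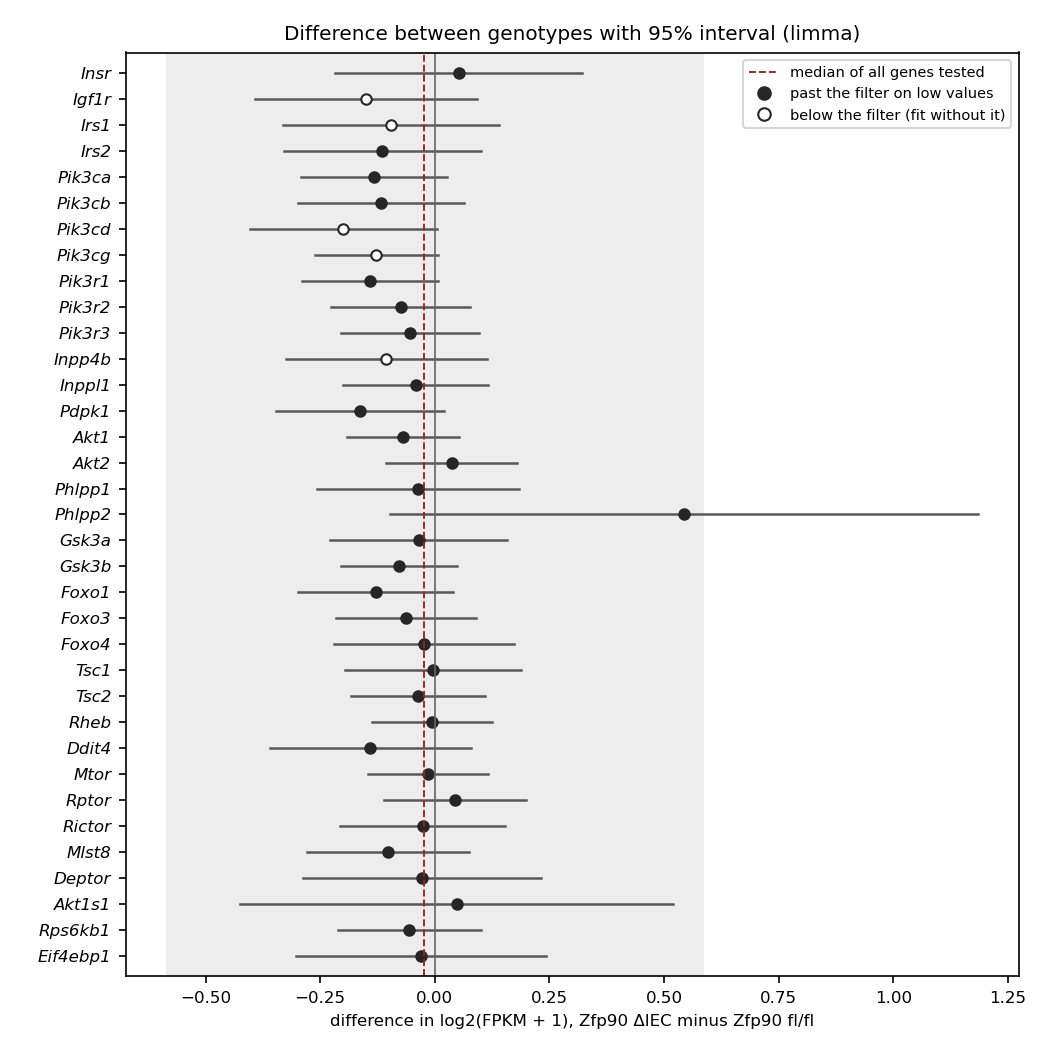
Difference in log2(FPKM + 1), ΔIEC minus fl/fl, of each of the 35 pathway genes, grouped by layer, with its 95% interval from limma. The point of Phlpp2 stands at 0.54 with the widest interval, and those of the other genes lie between -0.20 and 0.05.

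At the receptor, Insr, which encodes the insulin receptor, was measured at 9.34, 8.08 and 7.57 FPKM in the fl/fl mice and at 9.91, 7.41 and 8.77 FPKM in the ΔIEC mice, in the order of the replicate numbers here and below. Both groups spanned much the same range, and the log2 fold change was 0.05 (95% interval -0.22 to 0.32, adjusted p = 0.869). Irs2, the adaptor that couples the receptor to PI3K, was measured at 7.04, 8.65 and 8.89 FPKM in the fl/fl mice and at 7.50, 7.11 and 7.78 FPKM in the ΔIEC mice. Its lowest value belonged to fl/fl replicate 1, below all 3 ΔIEC values, while the other fl/fl mice were above them, and the log2 fold change was -0.11 (interval -0.33 to 0.10, adjusted p = 0.611), ranging from -0.21 without fl/fl replicate 1 to -0.06 without fl/fl replicate 3.

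Igf1r and Irs1, the receptor for IGF1 and a second adaptor, were low in this tissue and fell below the filter. Igf1r was measured at 1.28, 0.958 and 0.950 FPKM in the fl/fl mice and at 0.987, 0.766 and 0.813 FPKM in the ΔIEC mice. Irs1 was measured at 0.730, 0.682 and 0.767 FPKM in the fl/fl mice and at 0.716, 0.421 and 0.729 FPKM in the ΔIEC mice, with ΔIEC replicate 2 apart from the rest. In the fit without the filter, the log2 fold changes were -0.15 (interval -0.39 to 0.09, adjusted p = 0.702) for Igf1r and -0.10 (interval -0.33 to 0.14, adjusted p = 0.754) for Irs1. With a pseudocount of 0.1 FPKM they were -0.28 (interval -0.72 to 0.17) and -0.23 (interval -0.80 to 0.35), so that these low genes allow larger changes than the well expressed ones. Without ΔIEC replicate 2 the log2 fold change of Irs1 was -0.0030.

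The insulin receptor thus exceeded the IGF1 receptor in every sample, as Irs2 exceeded Irs1. The ratio of Insr to Igf1r in FPKM was 7.32, 8.43 and 7.97 in the fl/fl mice and 10.0, 9.67 and 10.8 in the ΔIEC mice, and these values did not overlap. It is given as a description and was not tested. The ratio of Irs2 to Irs1 ranged from 9.65 to 16.9 and overlapped between the genotypes.

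Class I PI3K pairs a catalytic with a regulatory subunit, and the 4 catalytic genes differed widely in level. Pik3ca, which encodes p110α, the ubiquitous isoform that serves insulin and growth factor receptors, was measured at 4.56, 5.31 and 4.90 FPKM in the fl/fl mice and at 4.43, 4.51 and 4.24 FPKM in the ΔIEC mice. The lowest fl/fl value and the highest ΔIEC value stood 0.048 FPKM apart, and the log2 fold change was -0.13 (interval -0.29 to 0.03, adjusted p = 0.423). Pik3cb, which encodes p110β, ranged from 1.97 to 2.56 FPKM with overlap, and its log2 fold change was -0.12 (interval -0.30 to 0.06, adjusted p = 0.532).

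Pik3cd and Pik3cg, which encode p110δ and p110γ, are the isoforms known chiefly from leukocytes, and both were near the floor in this epithelium. Pik3cd was measured at 0.505, 0.336 and 0.646 FPKM in the fl/fl mice and at 0.265, 0.325 and 0.303 FPKM in the ΔIEC mice. Pik3cg was measured at 0.255, 0.393 and 0.238 FPKM in the fl/fl mice and at 0.176, 0.221 and 0.156 FPKM in the ΔIEC mice. For both genes all ΔIEC values lay below all fl/fl values, under median ratio scaling too, by gaps of 0.0113 FPKM for Pik3cd and 0.017 FPKM for Pik3cg, and the mean FPKM in the ΔIEC mice was 60.04% and 62.47% of that in the fl/fl mice.

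Neither gene passed the threshold. In the fit without the filter, the log2 fold change of Pik3cd was -0.20 (interval -0.40 to 0.00, adjusted p = 0.511) and that of Pik3cg was -0.13 (interval -0.26 to 0.01, adjusted p = 0.522), and with a pseudocount of 0.1 FPKM they were -0.55 (interval -1.18 to 0.07) and -0.46 (interval -1.03 to 0.11). The leukocyte markers were lower in the same ΔIEC mice by the values given above, and Lyz2, a lysozyme of macrophages and granulocytes, was measured at 3.40, 4.81 and 3.11 FPKM in the fl/fl mice and at 1.66, 1.61 and 1.87 FPKM in the ΔIEC mice. The part of leukocytes in the values of Pik3cd and Pik3cg was not tested.

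Pik3ca and Pik3cb made up most of the catalytic transcripts in both genotypes. Pik3ca held 57.9% to 64.5% of the summed catalytic FPKM, with overlap between the genotypes. Pik3cd and Pik3cg together held 9.83% ± 1.09 in fl/fl and 6.92% ± 0.732 in ΔIEC samples (SD, n = 3 each), and the lowest fl/fl share of 8.84% was above the highest ΔIEC share of 7.76%. The summed catalytic level was 7.88, 8.25 and 8.04 FPKM in the fl/fl mice and 6.87, 7.03 and 6.97 FPKM in the ΔIEC mice, and it did not overlap either. The same held for the summed regulatory subunits (lowest fl/fl 28.6, highest ΔIEC 27.9 FPKM) and for PDK1 and AKT (45.3 and 44.3 FPKM). The sums of the other layers overlapped.

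**Figure D2:**
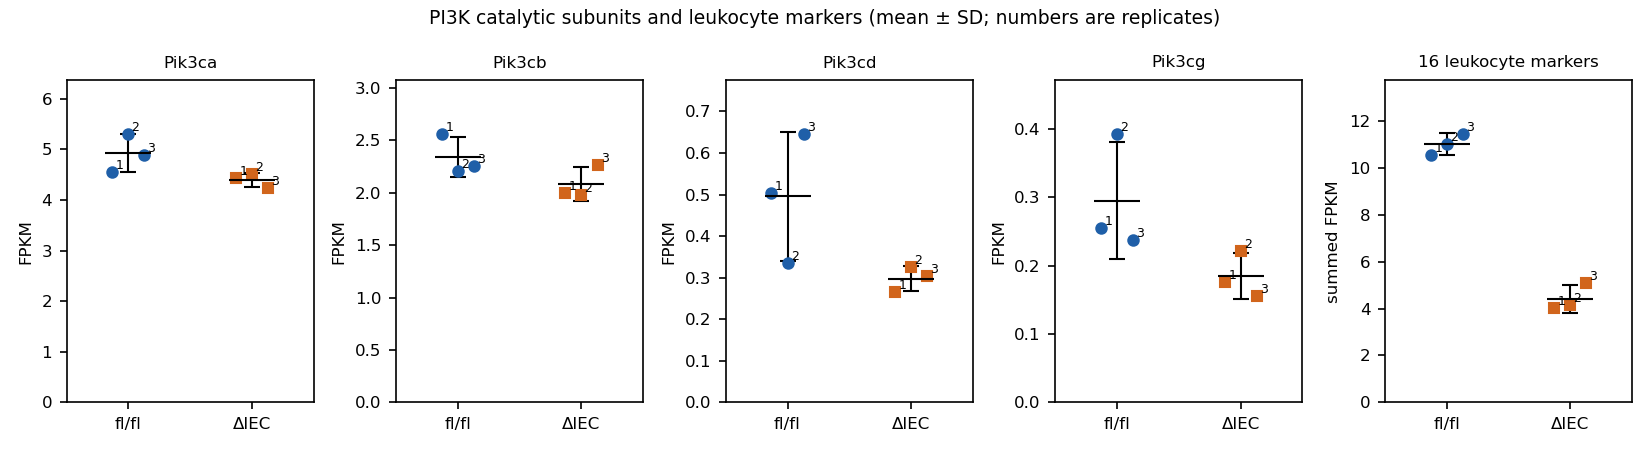
FPKM of the 4 PI3K catalytic subunit genes in each sample, fl/fl and ΔIEC, with mean ± SD (n = 3). The values of Pik3ca, Pik3cd and Pik3cg do not overlap between the genotypes, with gaps of 0.048, 0.0113 and 0.017 FPKM, and those of Pik3cb overlap.

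The regulatory subunits hold the catalytic ones inactive until a receptor or adaptor binds. Pik3r1, which encodes p85α and was the highest of them, was measured at 14.0, 13.2 and 12.7 FPKM in the fl/fl mice and at 12.6, 11.4 and 11.8 FPKM in the ΔIEC mice. All ΔIEC values were the lower ones, and the log2 fold change was -0.14 (interval -0.29 to 0.01, adjusted p = 0.367). Pik3r2 (p85β) ranged from 8.50 to 9.86 FPKM and Pik3r3 (p55γ) from 6.49 to 7.42 FPKM, both with overlap, at log2 fold changes of -0.07 (adjusted p = 0.642) and -0.05 (adjusted p = 0.750). Regulatory transcripts exceeded catalytic ones by 3.55 to 4.06 times in the 6 samples.

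Of the lipid phosphatases, Inppl1, which encodes SHIP2 and removes the 5-phosphate from the PI3K product, was measured at 15.8, 13.6 and 14.6 FPKM in the fl/fl mice and at 14.0, 14.4 and 14.3 FPKM in the ΔIEC mice. The ΔIEC values lay inside the fl/fl range, with a log2 fold change of -0.04 (interval -0.20 to 0.12, adjusted p = 0.812). Inpp4b, which removes the 4-phosphate, was below the filter at 0.937, 0.810 and 0.642 FPKM in the fl/fl mice and 0.693, 0.567 and 0.741 FPKM in the ΔIEC mice. The groups overlapped, and the log2 fold change was -0.11 (interval -0.33 to 0.11, adjusted p = 0.751, without the filter). Counted together, the 5 genes below the filter (Igf1r, Irs1, Pik3cd, Pik3cg and Inpp4b) were all lower in mean FPKM in the ΔIEC mice. Of these, 2 of 5 were lower without overlap, against 8.88% of all genes in the fit without the filter, while 0 of 5 passed the adjusted threshold, against 0.0539%, and 0 of 5 had an unadjusted p under 0.05, against 9.96%.

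Pdpk1 encodes PDK1, the kinase that phosphorylates the activation loop of AKT. It was measured at 8.16, 6.84 and 7.23 FPKM in the fl/fl mice and at 6.77, 6.09 and 6.64 FPKM in the ΔIEC mice. The ΔIEC values were all lower, the nearest pair by 0.0719 FPKM, and the log2 fold change of -0.16 (interval -0.35 to 0.02, adjusted p = 0.395) was the lowest of the tested genes of the pathway.

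Akt1, the gene of the growth-related AKT kinase, had the highest mean level of the 35 genes. It was measured at 33.5, 33.9 and 33.3 FPKM in the fl/fl mice and at 31.3, 33.3 and 31.3 FPKM in the ΔIEC mice. The groups did not overlap, but ΔIEC replicate 2 stood only 0.0252 FPKM below the lowest fl/fl value, and the log2 fold change was -0.07 (interval -0.19 to 0.05, adjusted p = 0.587). Akt2, the isoform tied to insulin-stimulated glucose uptake, ranged from 4.61 to 5.15 FPKM with overlap (log2 fold change 0.04, interval -0.11 to 0.18, adjusted p = 0.819). Akt1 exceeded Akt2 by 6.07 to 7.35 times over the 6 samples.

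**Figure D3:**
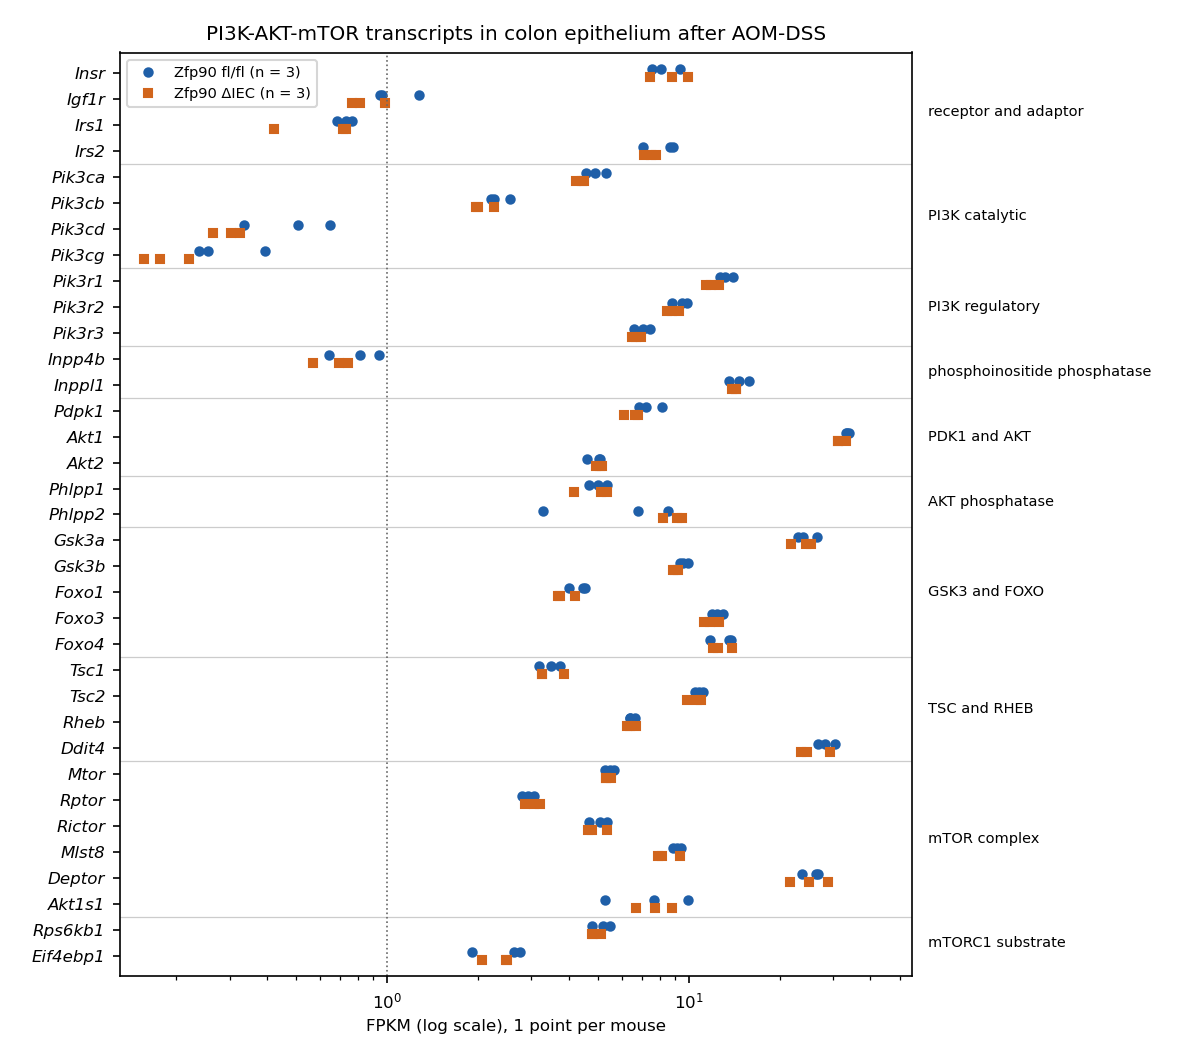
FPKM of the 35 pathway genes in each of the 6 samples on a log axis, ordered by layer, with fl/fl and ΔIEC mice marked apart. Levels run from Pik3cg, at 0.156 to 0.393 FPKM, to Akt1, at 31.3 to 33.9 FPKM, and for most genes the symbols of both genotypes lie together.

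Phlpp1 and Phlpp2 encode phosphatases that remove the hydrophobic motif phosphate of AKT. Phlpp2 was measured at 8.56, 3.30 and 6.78 FPKM in the fl/fl mice and at 9.18, 8.24 and 9.52 FPKM in the ΔIEC mice. Fl/fl replicate 2 was well below the other 5 samples, fl/fl replicate 1 lay within the ΔIEC range, and the groups overlapped. The log2 fold change was 0.54 (interval -0.10 to 1.18, adjusted p = 0.414), and without fl/fl replicate 2 it was 0.21 (interval -0.07 to 0.48, adjusted p = 0.556). Without fl/fl replicate 1 it was 0.78 (interval 0.19 to 1.38, adjusted p = 0.333). The within-genotype SD of Phlpp2 was 0.429 on the log2(FPKM + 1) scale, against a median of 0.0783 for the 30 genes tested and 0.1 for all genes tested. Phlpp1 ranged from 4.18 to 5.36 FPKM and overlapped (log2 fold change -0.04, interval -0.26 to 0.18, adjusted p = 0.888).

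Among the substrates of AKT, Gsk3a and Gsk3b encode the glycogen synthase kinases that AKT inhibits. Gsk3a was measured at 22.9, 26.6 and 24.0 FPKM in the fl/fl mice and at 21.8, 25.4 and 24.5 FPKM in the ΔIEC mice, with overlap and a log2 fold change of -0.04 (adjusted p = 0.877). Gsk3b was measured at 9.91, 9.32 and 9.56 FPKM in the fl/fl mice and at 9.23, 9.01 and 8.87 FPKM in the ΔIEC mice. The Gsk3b values of the ΔIEC mice were all lower, by 0.0921 FPKM at the nearest, and its log2 fold change was -0.08 (interval -0.20 to 0.05, adjusted p = 0.552).

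The FOXO factors, which AKT holds out of the nucleus, were all measured with overlap between the genotypes. Foxo1 ranged from 3.69 to 4.52 FPKM and had a log2 fold change of -0.13 (interval -0.30 to 0.04, adjusted p = 0.458). Foxo3 ranged from 11.22 to 12.95 FPKM (log2 fold change -0.06, adjusted p = 0.698) and Foxo4 from 11.8 to 13.9 FPKM (log2 fold change -0.02, adjusted p = 0.917). Foxo3 and Foxo4 were thus the more abundant FOXO transcripts in this epithelium, and Foxo1 stood at 0.310 to 0.379 times the level of Foxo3.

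The promoters of the pathway genes were searched for the FOXO binding letters GTAAACA on both strands, in windows from 250 bases before to 50 bases after the gene start in RefSeq (GRCm38.p6). A window was at hand for 31 of the 35 genes (43 windows), and 2 of the 43 held the motif (4.65%), against 3.65% of all 32851 windows. Both matches are shown, at Pik3cg and Akt1 on the minus strand of chromosome 12, with the motif letters in capitals.
Pik3cg, chr12:32208544-32208573: tttttcctaaaGTAAACAaatgatcctcct
Akt1, chr12:112675027-112675056: atctaccctctTGTTTACactcctggtgaa
In the Akt1 window the capitals are the reverse complement of the motif. A match is a description of the letters, and no binding was measured.

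The TSC complex shuts off RHEB, the small GTPase that turns on mTOR complex 1. Tsc1 ranged from 3.18 to 3.85 FPKM, Tsc2 from 9.83 to 11.1 FPKM and Rheb from 6.25 to 6.71 FPKM. All of them overlapped between the genotypes, and their log2 fold changes were -0.0038 for Tsc1 (adjusted p = 0.986), -0.04 for Tsc2 (adjusted p = 0.822) and -0.01 for Rheb (adjusted p = 0.971), those of Tsc1 and Rheb turning above 0 under both other scalings.

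Ddit4, which encodes REDD1 and acts on the TSC complex to hold mTOR complex 1 down, was the highest gene of its layer. It was measured at 26.8, 30.6 and 28.3 FPKM in the fl/fl mice and at 29.3, 24.7 and 23.6 FPKM in the ΔIEC mice. ΔIEC replicate 1 was higher than 2 of the 3 fl/fl mice and the other 2 were below all of them, and the log2 fold change was -0.14 (interval -0.36 to 0.08, adjusted p = 0.539). It ranged from -0.23 without ΔIEC replicate 1 to -0.08 without ΔIEC replicate 3.

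Mtor, the kinase common to both complexes, ranged from 5.27 to 5.63 FPKM (log2 fold change -0.02, above 0 under median ratio scaling, interval -0.15 to 0.12, adjusted p = 0.919). Rptor, the scaffold of mTOR complex 1, ranged from 2.79 to 3.22 FPKM, and Rictor, that of mTOR complex 2, from 4.63 to 5.37 FPKM. Both overlapped, at log2 fold changes of 0.04 (adjusted p = 0.801) and -0.03 (adjusted p = 0.900), and Rictor exceeded Rptor by 1.55 to 1.82 times in the 6 samples. Mlst8, a subunit of both complexes, ranged from 7.88 to 9.44 FPKM (log2 fold change -0.10, adjusted p = 0.580).

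Deptor, an inhibitor bound to both mTOR complexes, was the highest transcript of this layer. It was measured at 26.5, 26.7 and 23.7 FPKM in the fl/fl mice and at 29.1, 21.6 and 25.1 FPKM in the ΔIEC mice, the ΔIEC values spanning the fl/fl range, with a log2 fold change of -0.03 (interval -0.29 to 0.23, adjusted p = 0.922). The ratio of Deptor to Mtor was 4.08 to 5.24 in the 6 samples.

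Akt1s1 encodes PRAS40, a subunit of mTOR complex 1 that AKT phosphorylates. It was measured at 5.26, 9.94 and 7.67 FPKM in the fl/fl mice and at 6.69, 8.78 and 7.73 FPKM in the ΔIEC mice, so that replicate 1 was lowest and replicate 2 highest in both genotypes. The log2 fold change was 0.05 (interval -0.42 to 0.52, adjusted p = 0.927), and its within-genotype SD of 0.311 was the largest after that of Phlpp2. For the other 28 genes tested it ranged from 0.0338 to 0.165.

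The substrates of mTOR complex 1 were the last layer. Rps6kb1, which encodes S6 kinase, was measured at 5.47, 5.18 and 4.78 FPKM in the fl/fl mice and at 5.13, 4.79 and 4.8 FPKM in the ΔIEC mice. The ranges overlapped, with a log2 fold change of -0.06 (interval -0.21 to 0.10, adjusted p = 0.742). Eif4ebp1, which encodes the translation repressor 4E-BP1, ranged from 1.91 to 2.76 FPKM (log2 fold change -0.03, interval -0.30 to 0.24, adjusted p = 0.922).

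**Figure D4:**
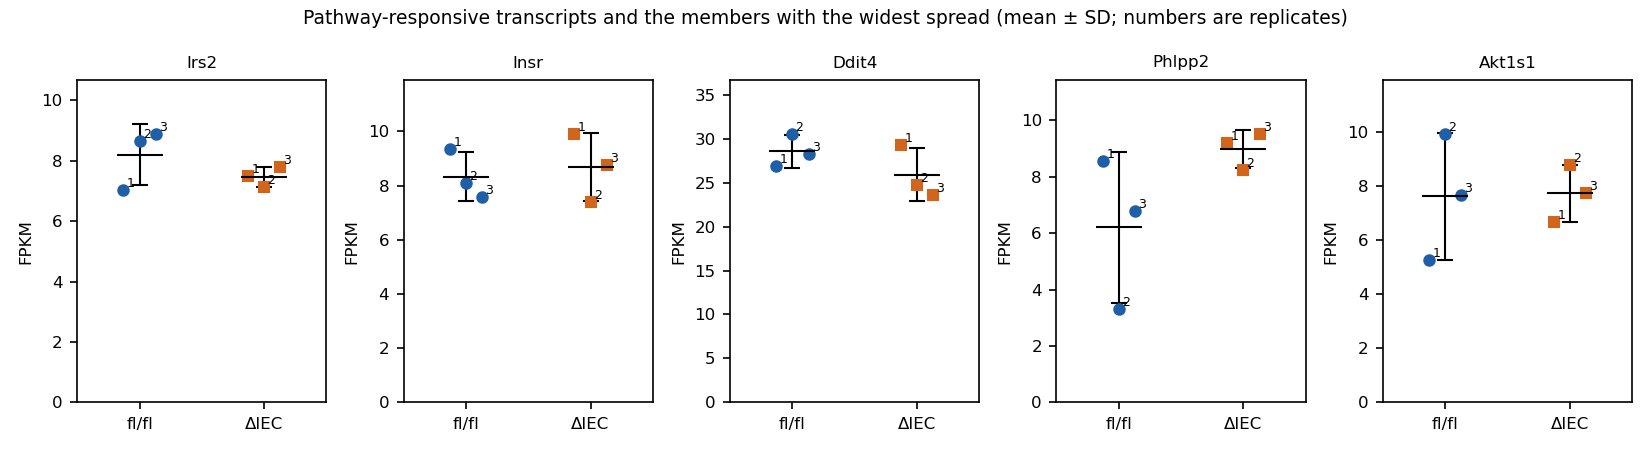
FPKM per sample, with mean ± SD (n = 3) and replicate numbers, of Irs2, Insr and Ddit4, the transcripts that respond to the pathway, and of Phlpp2 and Akt1s1, the pair with the widest spread. Fl/fl replicate 2 gives the lowest Phlpp2 value (3.30 FPKM) and the highest Akt1s1 value (9.94 FPKM).

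By layer, the summed FPKM in the ΔIEC mice was 86.4% of that in the fl/fl mice for the catalytic subunits, 92.7% for the regulatory subunits and 94.8% for PDK1 and AKT. The AKT phosphatases stood at 123%, with summed levels of 13.9, 8.30 and 11.5 FPKM in the fl/fl mice and 14.5, 12.4 and 14.6 FPKM in the ΔIEC mice, fl/fl replicate 2 being the low one. The other layers lay between 93.9% for TSC and RHEB, which Ddit4 dominates, and 98.2% for the mTOR complexes.

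Of the other genes of the pathway, 73 were followed, for other PI3K subunits, phosphoinositide enzymes, amino acid sensing to mTOR complex 1 and other mTOR, TSC and S6 kinase genes. Of these, 57 were tested, 0 passed the adjusted threshold, and 4 had an unadjusted p under 0.05 (7.02%), against 14.6% of all genes tested. Their median log2 fold change was -0.0038. The class II and III kinases Pik3c2a, Pik3c2b and Pik3c3 had log2 fold changes of -0.04, 0.03 and 0.03 (adjusted p between 0.848 and 0.925). Among the phosphoinositide enzymes tested, the smallest unadjusted p belonged to Inpp5k, Pip4k2b and Inpp5e, at log2 fold changes of -0.17, -0.17 and -0.14 (adjusted p = 0.361, 0.428 and 0.496). In the amino acid branch, Sesn1, a sestrin that restrains mTOR complex 1, stood at -0.19 (adjusted p = 0.398), and Fnip2 and Lamtor2, which act with the Rag GTPases on the lysosome, stood at 0.11 and 0.09 (adjusted p = 0.585 and 0.600).

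The other 16 of the 73 genes were below the filter and are read from the fit without it. Of these 16, 0 passed the adjusted threshold and 4 had an unadjusted p under 0.05, against 9.96% of all genes in that fit: Pip4k2a, Pik3r5 and Inpp5d were lower and Rragd was higher in the ΔIEC mice, all without overlap. Pip4k2a, a lipid kinase of the phosphoinositide pathway, was measured at 0.747, 0.689 and 0.818 FPKM in the fl/fl mice and at 0.207, 0.161 and 0.411 FPKM in the ΔIEC mice, the clearest difference of these genes (log2 fold change -0.48, interval -0.70 to -0.26, adjusted p = 0.180).

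Pik3r5, which encodes p101, the regulatory subunit that pairs with p110γ, had a mean of 0.165 FPKM in the fl/fl mice and 0.0711 FPKM in the ΔIEC mice (adjusted p = 0.217). Inpp5d, which encodes SHIP1, the leukocyte relative of SHIP2, had means of 0.428 and 0.245 FPKM (adjusted p = 0.253). Both were thus low and lower in the ΔIEC mice, as Pik3cd, Pik3cg and the leukocyte markers were, and the part of leukocytes in their values was not tested. Rragd, a Rag GTPase, had means of 0.0144 and 0.0967 FPKM (adjusted p = 0.411). The next in order were Pik3ip1 and Pik3ap1 among the PI3K subunits, at log2 fold changes of -0.27 (adjusted p = 0.630) and -0.12 (adjusted p = 0.751), and Rragb in the amino acid branch, at 0.06 (adjusted p = 0.614). Pik3ip1 was measured at 0.598, 0.571 and 0.703 FPKM in fl/fl and at 0.515, 0.0691 and 0.514 FPKM in ΔIEC mice. Its ΔIEC replicate 2 was far below the rest.

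Among the 57 genes past the filter, the 4 under an unadjusted p of 0.05 belonged to the list of other mTOR, TSC and S6 kinase genes. Sgk1, a kinase related to AKT and activated through mTOR complex 2, was measured at 27.8, 28.6 and 25.1 FPKM in the fl/fl mice and at 37.7, 42.5 and 34.4 FPKM in the ΔIEC mice. The groups were well apart, yet the log2 fold change of 0.47 (interval 0.26 to 0.69) did not pass the adjusted threshold (adjusted p = 0.0927), and glucocorticoids are also known to induce this gene. Its relative Sgk2 had a log2 fold change of 0.45 with overlap (adjusted p = 0.255). Eif4b, a translation factor that S6 kinase phosphorylates, and Rps6, the ribosomal protein S6, had log2 fold changes of -0.22 (adjusted p = 0.194) and -0.15 (adjusted p = 0.271), both without overlap.

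Known target genes of FOXO factors were split in direction. Of 22 tested outside the 35, 0 passed the adjusted threshold, and 11 had a log2 fold change above 0 and 11 below. Most of them are raised by FOXO factors, whereas Ccnd1, the cyclin D1 gene, which FOXO factors repress, was among those below 0 (-0.13, adjusted p = 0.622). An unadjusted p under 0.05 was found for 4 of the 22, against 14.6% of all genes tested. Pdk4, which turns cells from glucose to fat oxidation, was measured at 7.86, 5.48 and 7.50 FPKM in the fl/fl mice and at 12.2, 10.4 and 9.82 FPKM in the ΔIEC mice (log2 fold change 0.58, adjusted p = 0.131). Gadd45a, a growth arrest gene, was measured at 22.5, 26.9 and 30.1 FPKM in the fl/fl mice and at 33.6, 42.9 and 39.1 FPKM in the ΔIEC mice (log2 fold change 0.52, adjusted p = 0.134). Both were higher without overlap in the ΔIEC mice. Pck1, of gluconeogenesis, stood at 0.31 with overlap (adjusted p = 0.325), whereas Cat, the catalase gene, stood at -0.16 without overlap (adjusted p = 0.325).

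The inducers of Ddit4 were read from their other targets, and 0 genes of these lists passed the adjusted threshold. Of 8 glucocorticoid-induced genes tested, 2 had an unadjusted p under 0.05, against 14.6% of all genes tested, both higher in the ΔIEC mice: Sgk1, given above, and Fkbp5, a co-chaperone of the glucocorticoid receptor, at a log2 fold change of 0.41 (adjusted p = 0.117). The next was Cdkn1a, a cell cycle inhibitor, at 0.31 with overlap (adjusted p = 0.424).

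Of 11 hypoxia-induced genes tested, 4 had an unadjusted p under 0.05 and were lower in the ΔIEC mice and 1 was higher, against 14.6% of all genes tested in either direction. Egln3, a prolyl hydroxylase that marks HIF for degradation, was measured at 8.55, 9.03 and 8.47 FPKM in the fl/fl mice and at 5.75, 5.52 and 6.33 FPKM in the ΔIEC mice, the clearest separation in these lists, and lay just beyond the threshold (log2 fold change -0.50, interval -0.65 to -0.34, adjusted p = 0.0545, and up to 0.163 under the alternatives). Ero1l, an oxidase of the endoplasmic reticulum, stood at -0.36 (adjusted p = 0.0681), and Vegfa, the angiogenic factor, stood at 0.25 on the other side (adjusted p = 0.216). Of 7 ATF4-induced genes tested, 2 had an unadjusted p under 0.05, against 14.6% of all genes tested. These were Phgdh and Psat1, which make serine, at 0.43 (adjusted p = 0.177) and 0.31 (adjusted p = 0.208). Both were higher without overlap, as were 8.73% of all genes tested. Ddit3, which encodes CHOP, stood at 0.19 with overlap (adjusted p = 0.353). Atf4 itself, Atf3 and Sesn2 stood at 0.06, -0.02 and 0.03, all with overlap (adjusted p = 0.729, 0.937 and 0.894). Chac1, an ATF4 target below the filter, was higher, at 0.32 in the fit without the filter (adjusted p = 0.444). Ddit4 itself, with a log2 fold change of -0.14 and overlapping values, is described above.

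**Figure D5:**
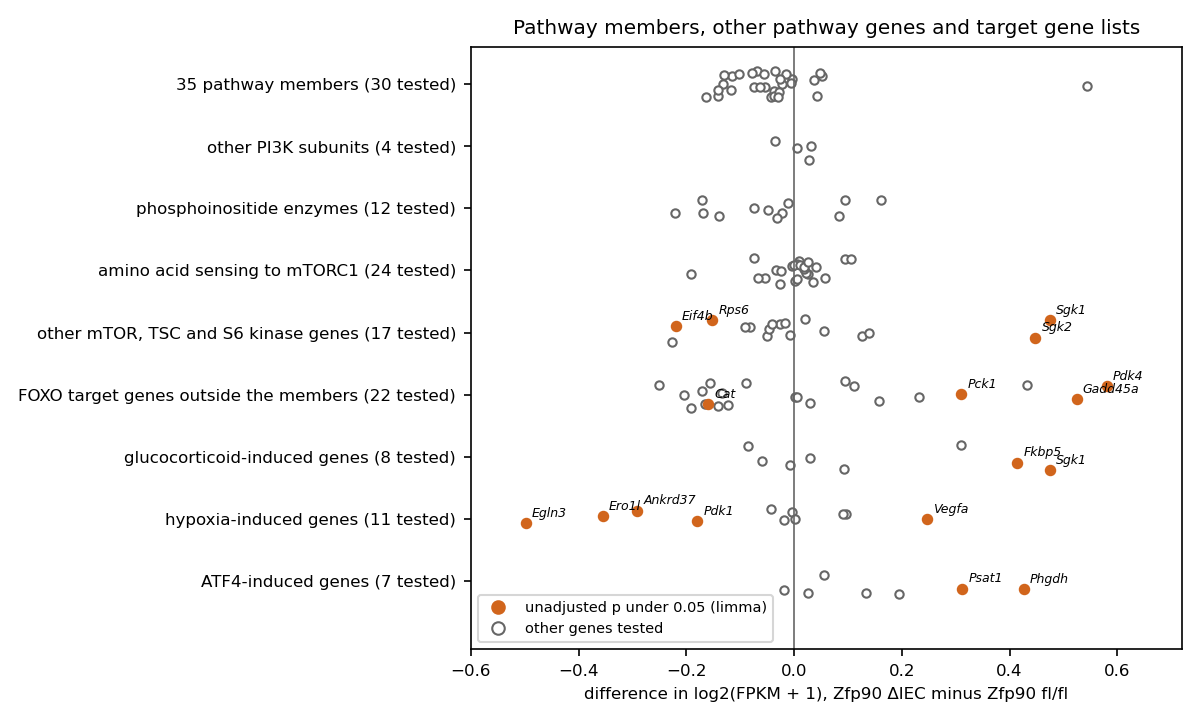
Difference in log2(FPKM + 1), ΔIEC minus fl/fl, of each gene tested among the 35 pathway genes, the other pathway genes and the target lists. Filled points have an unadjusted p under 0.05; there are 0 among the pathway genes, and 0 genes in any of these lists passed the adjusted threshold.

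The depth behind the lowest values was modest. At the estimated depth, Pik3cd rested on about 36 to 90 fragments per sample and Pik3cg on about 26 to 65, against 1165 to 1512 for Ddit4. Exonic bases are shared with another annotated gene by 13 of the 35 genes in the GRCm38 annotation, in 12 of them with a gene on the opposite strand, and the libraries were strand-specific while the strand setting of the quantification is not given in the sources used here. The partners with a mean level above 1 FPKM were Rnft1 at Rps6kb1, 9130221H12Rik at Gsk3a, Pkd1 at Tsc2 and Tbc1d17 at Akt1s1, and the values of these 4 pathway genes are uncertain to that extent.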

How the data were processed

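RNA was taken from colon epithelium detached with EDTA and DTT, and strand-specific libraries were sequenced as pairs. The authors deposited a table of FPKM per gene for each sample; the study's methods name TopHat and Cuffdiff with a human genome, whereas the submitters' processing notes list FastQC, STAR 2.5, Cuffnorm, DESeq 1.22.1 and mm9, and the tables hold mouse Ensembl identifiers. No gene coordinates of the files' build were used. Of 52550 identifiers, 52403 were given a symbol from the GRCm38 annotation. Groups come from the sample titles, because the genotype field of 2 Zfp90 ΔIEC samples names another gene number.

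From the deposited FPKM, log2(FPKM + 1) was computed, the 11564 genes that reached 1 FPKM in 3 or more samples were tested with limma 3.58.1 (trend, no covariates, two-sided, threshold of adjusted p under 0.05) in R 4.3.3, and p-values were adjusted over all of them. Genes below the filter take their statistics from the fit without it. The labels number the samples as replicates without naming animals, so p-values measure the spread between these samples, which may be technical. Depth was estimated from the steps between low FPKM values of genes with 1 transcript; 60.9% to 66.8% of those values lay within 0.1 of a whole number of fragments, too few for a count test, and a depth off by a factor of 2 could not be told apart. Tables were handled with pandas 2.3.3 and numpy 2.4.6 under Python 3.11.15, and plots were drawn with matplotlib 3.10.9.

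The genes of the pathway and the other gene lists were chosen with earlier results of these data known. All 35 genes are named, with values per sample for Irs2, Insr and Ddit4, for genes with an unadjusted p under 0.05 or without overlap, for the highest gene of each layer and for genes below the filter, and in each other pathway list the 3 genes of smallest unadjusted p, both among the genes tested and with the genes below the filter included. Values per sample for Phlpp2, Akt1s1 and genes of the other lists were added after their values were seen. So was the naming of Rps6, Cat, Ccnd1, Lyz2, Itgam, Car1, Krt18, Muc2, Atf4, Atf3 and Sesn2. Alternatives were no filter, a pseudocount of 0.1, median ratio scaling, quantile normalization, a block by replicate number, no trend, leaving out each sample and, added after the data were seen, a filter at 0.1 FPKM and the overlap of the genotypes under each scaling. Protein sequences and the proteins' phosphorylation were not analysed here.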

Additional observations from a re-analysis of the deposited data

How the results depend on the processing

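No gene of the pathway passed the adjusted threshold under any alternative run, and the lowest adjusted p of any of them was 0.237 (Ddit4, without ΔIEC replicate 1). Over all genes, 23 passed; 13 passed with a pseudocount of 0.1, 15 without the filter, 47 with the replicate block and 10 to 21 when 1 sample was left out. With an unadjusted p under 0.05 there were 0 pathway genes at first, against 14.6% of all genes tested. Without the filter there was 1 (Pik3r1), against 9.96% of all genes in that fit. There were 3 with the replicate block (Pdpk1, Phlpp2 and Pik3r1) and 0 to 3 when 1 sample was left out. The share of all genes in these last runs was not computed. The deviations of same-numbered samples correlated at 0.194, 0.110 and 0.0780, with 1 of the 3 under 0.1, so the numbers were not taken as pairs, although each sample correlated best with its own number, a hint from the data and not the design. The cause of these shifts was not tested.

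The median log2 fold change of the pathway genes lay between -0.0706 and -0.0376 when 1 sample was left out. Direction turned for 14 of the 35 genes in some alternative, 33 of 450 values in all, and the turned values reached at most 0.1646 in size. Tsc1 turned to 0.0121 under quantile normalization and 0.0139 under median ratio scaling, Rheb to 0.0109 and 0.0142, and Mtor to 0.0041 under median ratio scaling. Of the 5 tested genes lower without overlap, 1 was left under either of these scalings. Of all genes tested, 9.7% were lower without overlap under median ratio scaling and 10.5% under quantile normalization. When 1 sample was left out, the log2 fold change ranged from -0.0374 to 0.1505 for Insr, -0.0923 to 0.0102 for Inppl1, -0.0001 to 0.0572 for Akt2, -0.0959 to 0.0519 for Phlpp1, -0.0799 to 0.0251 for Gsk3a, -0.0896 to 0.0186 for Foxo4, -0.0647 to 0.0378 for Tsc1, -0.0691 to 0.0060 for Tsc2, -0.0299 to 0.0144 for Rheb, -0.0360 to 0.0042 for Mtor, -0.0802 to 0.0119 for Rictor, -0.1305 to 0.0740 for Deptor, -0.1646 to 0.2383 for Akt1s1, -0.1449 to 0.0401 for Eif4ebp1, -0.0924 to 0.0108 for Pik3c2a, -0.0106 to 0.0485 for Pik3c2b and -0.0524 to 0.1716 for Pik3c3.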
